A study of Mus musculus with 6 samples.

Results

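The receptors for IL-3, GM-CSF and IL-5 form one family, and 5 of the 46959 genes listed in the table of haematopoietic stem cell (HSC) libraries encode its chains in the mouse. Csf2rb and Csf2rb2 encode the beta chains, and Csf2ra, Il3ra and Il5ra encode the alpha chains for GM-CSF, IL-3 and IL-5. The members were taken by gene symbol, each symbol named 1 gene of the table, and they were picked with their difference between the groups already known. Their values in that comparison are therefore given as a description and without a test.

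An alpha chain binds its own cytokine weakly and specifically, and a shared beta chain joins the complex, raises the affinity and carries most of the cytoplasmic tail that signals. Ligand binding brings JAK2 molecules on the receptor together, and STAT5 phosphorylated there moves to the nucleus and switches on genes such as Cish, the Socs genes and the Pim kinases. The mouse carries an additional beta chain gene, Csf2rb2, whose product pairs with the IL-3 alpha chain and not with the other alpha chains. The family is known for driving the growth of myeloid progenitors, mast cells, basophils, eosinophils and macrophages, and chains are also detected on stem and progenitor cells.

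RNA was sequenced from bone marrow HSCs of young adult control mice and MaeaCsf1r-Cre littermates, 8 weeks old by the series' design text and within a wider range of ages by the study's own account, with 3 libraries in each group and about 2000 sorted cells in a library. MaeaCsf1r-Cre mice carry floxed Maea alleles and the Csf1r-Cre transgene, a driver used for mononuclear phagocytes that also recombines in stem and progenitor cells, so macrophages of the marrow lose Maea as well. The labels name the other group only as control, and the exact alleles of those littermates are not given in the sources used here. The study describes a pool of mice behind each library and defines HSCs as CD150+ CD48- cells of the lineage-negative, Sca-1+ and c-Kit+ fraction.

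Values are CPM, read counts scaled to the same total in every library, and 32967800 to 60936800 reads lay behind the scaling of a library, fewest in control replicate 1 and most in MaeaCsf1r-Cre replicate 1. A level of 3 reads was 0.0492 to 0.0910 CPM, which covers counting error only. All 10 HSC markers were expressed, at a summed 993 to 1560 CPM in control and 680 to 1260 CPM in MaeaCsf1r-Cre libraries, and Cd48, whose protein the sort excluded, was at 12.4 to 46.5 CPM. Maea itself was at 116 ± 7.29 CPM (SD, n = 3) in control and 88.8 ± 12.0 CPM (SD, n = 3) in MaeaCsf1r-Cre HSCs, lower in every MaeaCsf1r-Cre library (log2 fold change -0.39, standard error 0.13, limma adjusted p = 0.967). The study reports highly efficient deletion of Maea in stem and progenitor cells, and a gene-level CPM does not show from which exons its reads came. In bulk libraries of this kind, fewer cells of a type and less RNA per cell cannot be told apart.

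The beta chain genes lie next to each other in opposite orientation on chromosome 15 of GRCm38 (mm10), Csf2rb2 at chr15:78282507-78305721 on the minus strand and Csf2rb at chr15:78325752-78353847 on the plus strand. Their coding sequences in the GENCODE annotation, of 2691 bases for Csf2rb and 2637 bases for Csf2rb2, had 2505 identical bases among 2631 aligned, an identity of 95.2%. A further 66 columns of the alignment held a gap. How far a read can tell the copies apart decides how their values may be read. The gap-free stretch where they differ most and the longest stretch they share are therefore shown. The 90 aligned bases with the lowest identity lie in exon 5 of Csf2rb at chr15:78338897-78338986 (plus strand) and in exon 4 of Csf2rb2 at chr15:78294345-78294434 (minus strand). Here 74 bases were identical, and the 16 that differ are in capitals, each sequence 5′ to 3′ along its own gene.
Csf2rb: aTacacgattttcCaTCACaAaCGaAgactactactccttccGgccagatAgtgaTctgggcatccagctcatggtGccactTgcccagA
Csf2rb2: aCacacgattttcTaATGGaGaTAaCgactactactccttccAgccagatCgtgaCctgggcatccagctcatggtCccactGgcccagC

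The longest run without a difference was 242 bases long, in the last exon of each transcript, exon 15 of Csf2rb at chr15:78348577-78348818 (plus strand) and exon 14 of Csf2rb2 at chr15:78284630-78284871 (minus strand). It lies at coding positions 2083 to 2324 of both genes, within the part that encodes the cytoplasmic tail.
Both beta chains: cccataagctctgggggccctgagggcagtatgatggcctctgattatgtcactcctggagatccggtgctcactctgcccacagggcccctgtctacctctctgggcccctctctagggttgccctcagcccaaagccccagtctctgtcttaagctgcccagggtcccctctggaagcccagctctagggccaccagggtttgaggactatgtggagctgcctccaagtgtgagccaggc

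A read of the length sequenced, 150 bases, that falls inside this run cannot be given to one gene. Of the 4751 windows of 150 bases in the longest coding transcript of Csf2rb, 165 (3.5%) occurred unchanged in a transcript of Csf2rb2. In Csf2rb2 the number was 165 of 4591 windows (3.6%). Most of either transcript can thus be told apart by a read that matches without error, and a small part of it cannot.

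**Figure D1:**
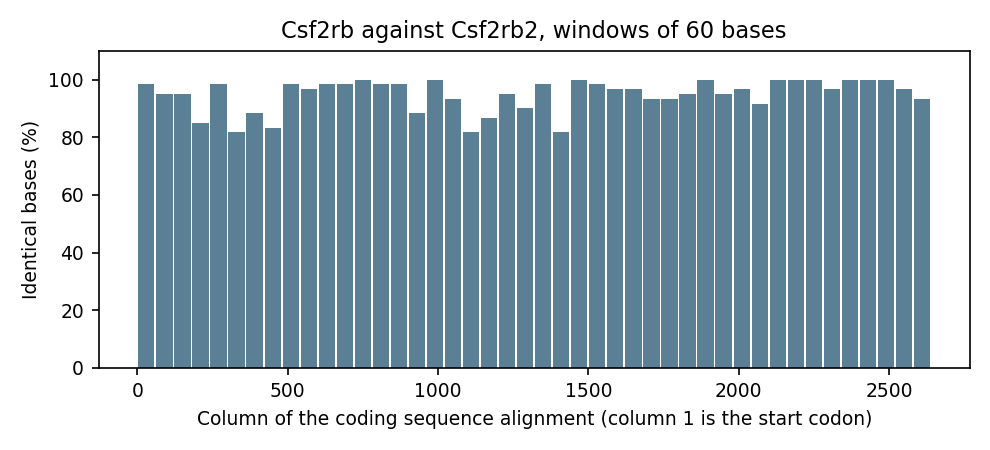
Identity of the Csf2rb and Csf2rb2 coding sequences, with the column of their alignment on the x axis and the percentage of identical bases on the y axis, 1 bar for each window of 60 columns. Windows drawn ranged from 81.7% to 100% identical, and the lower ones among them lie mostly in the first part of the sequence. The incomplete window after column 2640, which holds most of the 66 gap columns, is not drawn.

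The deposited values carried a trace of this sharing. When CPM was turned back into reads, the alpha chains gave whole numbers within a tolerance of 0.01 read in 18 of 18 values. Neither beta chain did in any library, and their 12 values lay 0.061 to 0.398 of a read away from the nearest whole number. Added together, the beta chains came out whole in 6 of 6 libraries, as 861, 1285 and 925 reads in control replicates 1, 2 and 3 and as 3523, 3690 and 2379 reads in MaeaCsf1r-Cre replicates 1, 2 and 3. Each copy thus held fractions of reads that cancelled in the sum, and the sum of both genes does not depend on how reads were divided between them.

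Csf2rb, the common beta chain, was at 19.9, 23.8 and 18.5 CPM in control replicates 1, 2 and 3 and at 41.2, 60.7 and 36.5 CPM in MaeaCsf1r-Cre replicates 1, 2 and 3. Every MaeaCsf1r-Cre library lay above every control library, with replicate 2 the highest of its group on both sides. The means were 20.7 ± 2.73 CPM and 46.1 ± 12.8 CPM (SD, n = 3 each), 2.23-fold apart. On the scale of log2(CPM + 1) the difference was 1.09 with a standard error of 0.24 from the spread of the libraries, and 1.02, 1.32 and 0.95 between the libraries that share the number 1, 2 or 3.

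Csf2rb2, the beta chain that serves IL-3 alone, was at 6.24, 8.67 and 8.53 CPM in control and at 16.6, 22.9 and 17.1 CPM in MaeaCsf1r-Cre replicates 1, 2 and 3. Its groups were also apart, by 2.41-fold from 7.81 ± 1.36 to 18.9 ± 3.48 CPM (SD, n = 3 each). The difference was 1.17 on the log2 scale (standard error 0.20), close in size to that of Csf2rb.

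Summed, which sets aside the division of shared reads, the beta chains were at 26.1, 32.4 and 27.0 CPM in control and at 57.8, 83.6 and 53.7 CPM in MaeaCsf1r-Cre libraries. The lowest MaeaCsf1r-Cre value was above the highest control value, and the log2 difference of the sums was 1.14 (standard error 0.22). Csf2rb2 made up 23.9, 26.7 and 31.6% of this sum in control and 28.7, 27.4 and 31.9% in MaeaCsf1r-Cre libraries. These shares overlapped, with means of 27.4 ± 3.87% and 29.3 ± 2.34% (SD, n = 3 each), so the copies kept a similar proportion while both were higher. The microRNA genes annotated inside them, Mir7676-1 in Csf2rb2 and Mir7676-2 in Csf2rb, were listed at 0 in all 6 libraries. Both lie inside the run of 242 bases that the copies share, where reads also match the beta chain exons. Their 0 therefore does not show that they are absent.

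**Figure D2:**
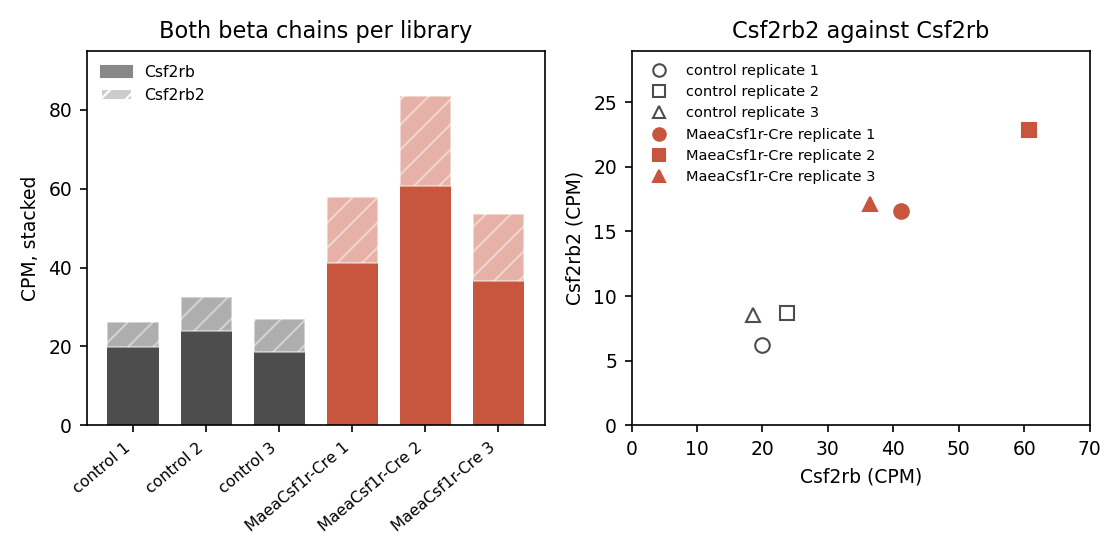
Left, CPM of Csf2rb and Csf2rb2 stacked for each library. Right, Csf2rb2 on the y axis against Csf2rb on the x axis, both in CPM, 1 point per library. The MaeaCsf1r-Cre bars reach 53.7 to 83.6 CPM against 26.1 to 32.4 CPM in control, and on the right the groups lie apart on both axes.

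The alpha chains did not follow. Csf2ra, the GM-CSF alpha chain on chromosome 19 (chr19:61223957-61228429, minus strand), was at 7.58, 15.3 and 11.7 CPM in control and at 7.12, 11.7 and 13.4 CPM in MaeaCsf1r-Cre replicates 1, 2 and 3. The groups overlapped almost fully, with means of 11.5 ± 3.86 and 10.7 ± 3.23 CPM (SD, n = 3 each) and a log2 difference of -0.09 (standard error 0.37). Replicate 1 was the lowest library of both groups.

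Il3ra, the IL-3 alpha chain on chromosome 14 (chr14:14346275-14356011, plus strand), was at 3.34, 3.89 and 2.86 CPM in control and at 2.22, 4.62 and 4.06 CPM in MaeaCsf1r-Cre libraries. The control values lay inside the range of the MaeaCsf1r-Cre values, and the log2 difference was 0.05 (standard error 0.27). An antisense gene, Gm48860, overlaps Il3ra, and reads of the pair cannot be told apart where the counting does not use strand. The sign of neither alpha chain was stable. Csf2ra stood at 0.05 (standard error 0.27) after quantile normalization, and Il3ra at -0.11 (standard error 0.34) without MaeaCsf1r-Cre replicate 2.

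Il5ra, the IL-5 alpha chain on chromosome 6 (chr6:106710357-106749037, minus strand), was close to the floor. Its values were 0.516, 0.581 and 0.146 CPM in control and 0.164, 0.340 and 0.293 CPM in MaeaCsf1r-Cre libraries, which stands for 5 to 23 reads a library. Groups overlapped here too, and no library reached the 1 CPM that a gene needed in 3 libraries to be tested.

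**Figure D3:**
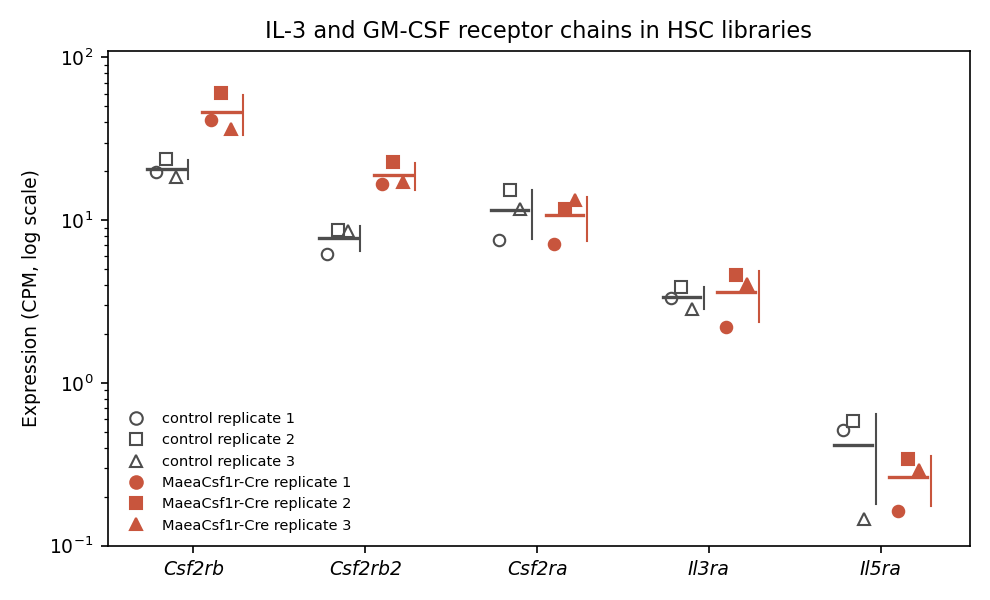
Expression of the 5 receptor chains in CPM on a log scale, 1 symbol per library, with open symbols for control and filled ones for MaeaCsf1r-Cre. Horizontal lines are group means and vertical lines 1 SD on either side (n = 3). The groups are apart for Csf2rb (20.7 against 46.1 CPM) and Csf2rb2 (7.81 against 18.9 CPM) and overlap for Csf2ra, Il3ra and Il5ra.

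Of the 5 genes, 4 passed the filter on low values, and 0 of these 4 had an adjusted p under 0.05 in limma. Over the whole table the same rule called 0.00772% of 12955 genes tested, a single gene, while for 517 genes p was under 0.05 before adjustment. That gene, BC023719, was looked up after its value was seen. Its log2 difference rose from 3.36 to 6.55 with a pseudocount of 0.1, which places it near 0 CPM in control. It thus passed the filter only through the group in which it was higher, and no test is read from it. Csf2rb and Csf2rb2 were the members without overlap between the groups, both higher in MaeaCsf1r-Cre HSCs. Over all genes tested 8.55% had no overlap, 2.49% with MaeaCsf1r-Cre higher and 6.06% with it lower. This split depended on the scaling, with 323 genes higher and 785 lower as deposited, 609 and 575 after median ratio scaling and 664 and 583 after quantile normalization. Because the family was chosen on this very comparison, nothing is read from its count against these shares. The median log2 difference of all genes tested was -0.06, and 30 genes had a larger one than Csf2rb.

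Levels of different genes can be compared only per length, so CPM was divided by the length of the merged exons of each gene in kb. In control HSCs the order was Csf2ra with 4.01 ± 1.34, Csf2rb with 2.85 ± 0.376, Csf2rb2 with 1.65 ± 0.288, Il3ra with 1.13 ± 0.173 and Il5ra with 0.116 ± 0.0656 CPM per kb (SD, n = 3). Csf2ra and Csf2rb overlapped there and stood in this order in 2 of 3 libraries, while each of the later steps held in 3 of 3 libraries. By the longest transcript the step from Csf2rb2 to Il3ra (1.65 ± 0.288 and 1.45 ± 0.222) held in 2 of 3 libraries, with overlapping values. In MaeaCsf1r-Cre HSCs Csf2rb came first with 6.34 ± 1.76 CPM per kb, followed by Csf2rb2 with 3.98 ± 0.735 and Csf2ra with 3.73 ± 1.12, and the values of Csf2rb2 and Csf2ra overlapped. By the longest transcript this last order was reversed, with Csf2ra at 4.71 ± 1.42 and Csf2rb2 at 3.98 ± 0.735 CPM per kb. By merged exons Il3ra followed with 1.22 ± 0.424 and Il5ra with 0.0743 ± 0.0254 CPM per kb.

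Seen as a ratio per length, beta chain transcripts (Csf2rb and Csf2rb2) over those of the better expressed alpha chains (Csf2ra and Il3ra) stood at 1.07, 0.768 and 0.864 in control and at 2.84, 2.34 and 1.43 in MaeaCsf1r-Cre replicates 1, 2 and 3. The ratio was thus near equality in control HSCs, and above it in each MaeaCsf1r-Cre library, with means of 0.902 ± 0.157 and 2.20 ± 0.712 (SD, n = 3 each). This ratio is built from the same values as the differences above and adds no independent support. With the length of the longest transcript in place of merged exons, the means were 0.933 ± 0.172 and 2.26 ± 0.744.

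**Figure D4:**
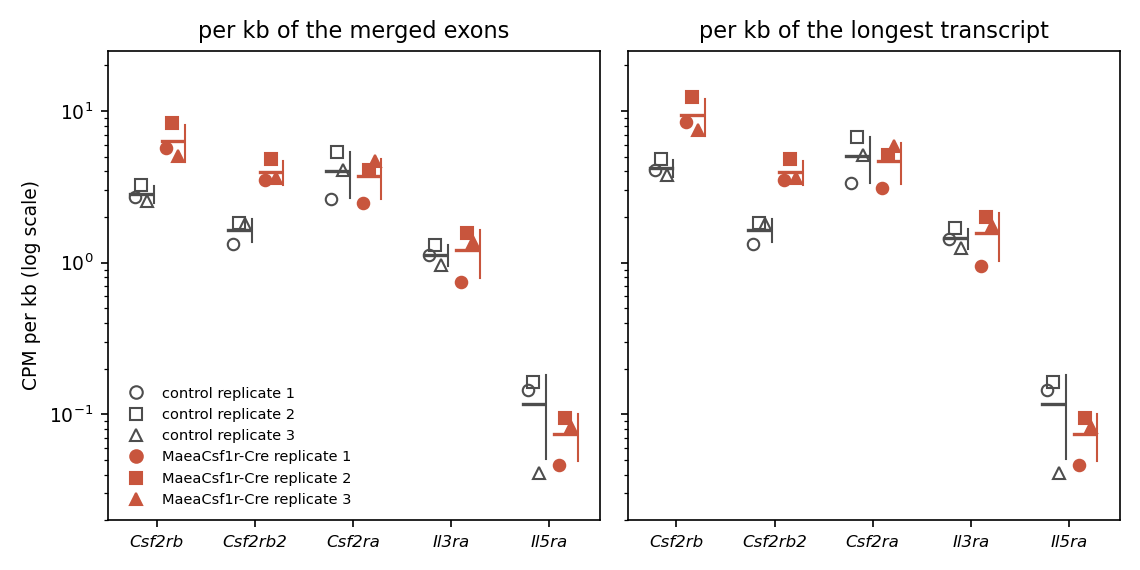
Levels of the 5 chains in CPM per kb on a log scale, by merged exons on the left and by the longest transcript on the right, with 1 symbol per library, group means as horizontal and 1 SD as vertical lines. Csf2ra is highest by mean in control (4.01 by merged exons) and Csf2rb in MaeaCsf1r-Cre HSCs (6.34), and Il5ra is lowest in both.

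The ligands of the family were close to absent from the sorted cells. Il3 was listed at 0 in all 6 libraries, Csf2, which encodes GM-CSF, appeared only in control replicate 3 at 0.0292 CPM, and Il5 appeared only in MaeaCsf1r-Cre replicate 3 at 0.0902 CPM. The Csf2 value lies below the level of 3 reads in its library and the Il5 value just above it, and 0 of the 3 ligands could be tested.

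Downstream of the receptor, 22 of 23 genes of the signalling list passed the filter and 0 had an adjusted p under 0.05 in limma, with 1 at an unadjusted p under 0.05. By group mean 16 were lower and 6 higher in MaeaCsf1r-Cre HSCs, with a median log2 difference of -0.12 against -0.06 over all genes tested. Without MaeaCsf1r-Cre replicate 1 the list stood at 12 lower and 10 higher with a median of -0.01 against -0.05 over all genes, and without control replicate 2 at a median of -0.04. Jak2, the kinase bound to the beta chain, was at 105, 85.1 and 97.7 CPM in control and at 83.0, 79.2 and 93.9 CPM in MaeaCsf1r-Cre libraries, which overlapped (log2 difference -0.17, standard error 0.13). Both STAT5 genes were nearly level between the groups. Stat5a was at 173 ± 15.9 and 175 ± 5.64 CPM, and Stat5b at 189 ± 21.9 and 188 ± 18.1 CPM, in control and MaeaCsf1r-Cre HSCs (SD, n = 3 each).

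The list holds 3 subunits of phosphoinositide 3-kinase, which acts downstream of the beta chain, and not all had means on the same side. Pik3r1 was at 72.8, 96.5 and 87.1 CPM in control and at 51.2, 67.2 and 76.3 CPM in MaeaCsf1r-Cre libraries, with a log2 difference of -0.40 (standard error 0.18). Pik3cg was at 88.1, 133 and 119 CPM in control and at 62.5, 93.4 and 93.6 CPM in MaeaCsf1r-Cre libraries, with a log2 difference of -0.44 (standard error 0.21). Pik3cd, named beside them after its values were seen, was higher by mean, at 63.7 ± 5.99 and 69.8 ± 11.7 CPM (SD, n = 3 each; log2 difference 0.12, standard error 0.16). The groups overlapped for all 3 genes.

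Among genes that STAT5 is known to switch on, 13 of 13 were tested and 0 had an adjusted p under 0.05 in limma, with 2 at an unadjusted p under 0.05. Here 10 were higher and 3 lower by group mean in MaeaCsf1r-Cre HSCs, with a median log2 difference of 0.25. Without control replicate 1 this became 6 higher and 6 lower of the genes tested with a median of 0.06, and without MaeaCsf1r-Cre replicate 1 the median was 0.41. Socs3, a feedback inhibitor of cytokine receptors, had the smallest p of the list, at 10.1, 11.3 and 4.59 CPM in control and 17.4, 39.3 and 18.0 CPM in MaeaCsf1r-Cre libraries. It did not overlap between the groups (log2 difference 1.40, standard error 0.40, limma adjusted p = 0.967, and 0.141 with the replicate block). Within each group Socs3 was highest in replicate 2, as was Csf2rb.

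Pim2, a survival kinase, was at 47.7, 73.5 and 28.2 CPM in control and at 63.0, 111 and 77.8 CPM in MaeaCsf1r-Cre libraries, which overlapped (log2 difference 0.80, standard error 0.34). Osm, the cytokine oncostatin M, went from 6.67 ± 2.32 to 9.76 ± 1.79 CPM (SD, n = 3 each) with a log2 difference of 0.53 (standard error 0.28). Mcl1, which protects cells from apoptosis, was lower in every MaeaCsf1r-Cre library, at 143 ± 7.72 against 164 ± 9.98 CPM (SD, n = 3 each; log2 difference -0.19, standard error 0.11). Cish, another feedback inhibitor, was at 33.4 ± 14.2 and 34.3 ± 17.6 CPM, with a log2 difference of 0.01 (standard error 0.38). It was looked up outside the naming rule, after its values were seen.

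The remaining type I cytokine receptors show whether other chains of that superfamily stood higher too. Of 23 listed, 17 were tested and 0 had an adjusted p under 0.05 in limma, with 1 at an unadjusted p under 0.05. By group mean 12 of the 17 were lower and 5 higher, and the median log2 difference was -0.38. This lean was absent without MaeaCsf1r-Cre replicate 1, where 7 were lower and 9 higher with a median of 0.01. That fit leaves control replicate 1 without its same-numbered library, so it does not show that the lean came from that library alone. The median was -0.24 without control replicate 2, -0.18 without control replicate 3 and -0.59 without MaeaCsf1r-Cre replicate 3. Il6ra, the IL-6 alpha chain, had the smallest p, at 7.96, 7.52 and 7.80 CPM in control and 2.33, 4.76 and 4.40 CPM in MaeaCsf1r-Cre libraries. Its groups did not overlap, with MaeaCsf1r-Cre lower (log2 difference -0.90, standard error 0.25, limma adjusted p = 0.967, and 0.218 with the replicate block).

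Il21r (33.2 ± 9.10 against 21.3 ± 9.75 CPM) and Il12rb2 (6.31 ± 1.93 against 3.86 ± 1.27 CPM) were lower by mean with overlapping groups (SD, n = 3 each). No receptor of this list lay higher in every MaeaCsf1r-Cre library, against 2.49% over all genes tested. Of the 17 tested, 1 (Il6ra) lay lower in every one, against 6.06%. With 17 genes these counts are near the shares over all genes, and nothing is read from them. Whether the beta chains differ from these receptors in their response was not tested, as the family was picked for its values. With the replicate number as a block, unadjusted p fell under 0.05 for 3 signalling genes, 4 STAT5 targets and 6 of these receptors, and 0 genes of the 3 lists had an adjusted p under 0.05.

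**Figure D5:**
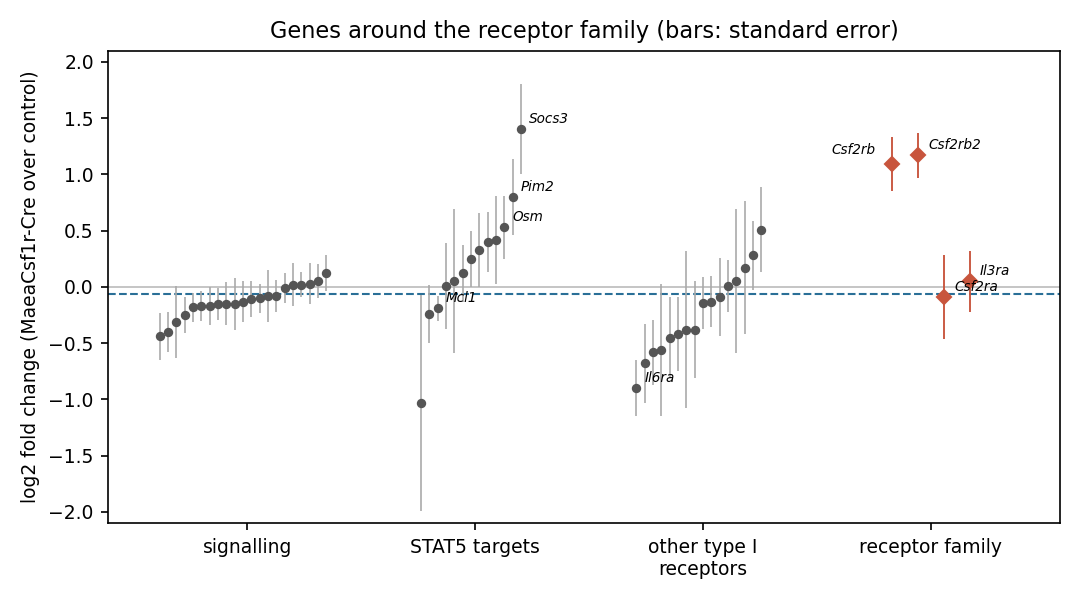
Difference between the groups in log2(CPM + 1), MaeaCsf1r-Cre minus control, for tested genes of the signalling, STAT5 target and other type I receptor lists whose values are reported here (circles) and for 4 receptor chains (diamonds), with standard errors as bars. The dashed line is the median of all genes tested, -0.06. Csf2rb (1.09) and Csf2rb2 (1.17) lie above every gene of the lists except Socs3 (1.40).

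The genes closest to Csf2rb in their pattern over the 6 libraries were ranked by Pearson's r of log2(CPM + 1), as a description over 12953 genes. Csf2rb2 had r = 0.958, and Gm26917 (0.992), Rpl28-ps1 (0.984), H2-K2 (0.982) and Rcvrn (0.981) came before it, with Gm42418 (0.954) next. Il3ra had r = 0.305 and Csf2ra r = -0.0108. The likeness contains the difference between the groups. With the group means removed, 0 of the 5 closest genes outside the family were still among the closest 5. Their r stayed high, at 0.977 for Rcvrn (rank 7), 0.948 for Gm26917 (rank 25) and 0.928 for Rpl28-ps1 (rank 42). It was 0.91 for H2-K2 (rank 57) and 0.82 for Gm42418 (rank 169). Csf2rb2 had r = 0.701 (rank 443), so within the groups each of these 5 genes followed Csf2rb more closely than Csf2rb2 did.

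Gm26917 and Gm42418 are abundant noncoding RNA genes known to collect ribosomal RNA reads. Gm26917 was at 18200, 19400 and 17900 CPM in control and at 22100, 24600 and 22300 CPM in MaeaCsf1r-Cre libraries, higher in each of the latter, as was Gm42418 with means of 6830 ± 757 and 8840 ± 677 CPM (SD, n = 3 each). Reads of this kind were therefore more frequent in the same libraries in which the beta chains were higher. Their part in the beta chain values was not tested.

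Markers of other blood cells, among them types that carry the receptor, were read in the same libraries. The 9 mast cell and basophil markers summed to 14.5 to 45.5 CPM in control and 20.7 to 62.4 CPM in MaeaCsf1r-Cre libraries, and 8 of 9 were higher by mean. Of the 9, of which 3 were tested, 1 was higher in every MaeaCsf1r-Cre library, against 2.49% over all genes tested. That gene was Fcer1a, which encodes the IgE receptor alpha chain. It was at 0.880, 0.379 and 0.584 CPM in control and 4.91, 4.08 and 1.22 CPM in MaeaCsf1r-Cre libraries (log2 difference 1.34, standard error 0.38). Fcer1a reached 1 CPM only in MaeaCsf1r-Cre libraries. It thus passed the filter only through the group in which it was higher, and no test is read from it. Of the more restricted markers, Cma1 was at 0 in every library but MaeaCsf1r-Cre replicate 1 (1.89 CPM). Mcpt8 was at 0.0607, 0.177 and 0 CPM in control and at 2.26, 0.340 and 0 CPM in MaeaCsf1r-Cre replicates 1, 2 and 3. Prss34 went the other way, at 0, 0.126 and 0.146 CPM in control and at 0 in every MaeaCsf1r-Cre library. The sum of this list was highest in replicate 1 of both groups. The part of mast cells and basophils in the beta chain values was not tested.

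The 4 eosinophil markers summed to 1.67 to 2.73 and 1.58 to 3.58 CPM, and Epx, an eosinophil granule enzyme, was at 0 in all libraries. The 12 macrophage markers, of which 8 were tested, summed to 28.8 to 81.9 CPM in control and 8.02 to 52.1 CPM in MaeaCsf1r-Cre libraries. Lower in every MaeaCsf1r-Cre library were 6 of 12, against 6.06% over all genes tested. Of these 6, Cd5l was not tested, and C1qa, C1qb and C1qc reached 1 CPM only in control libraries. Those C1q genes thus passed the filter only through the group in which they were higher. Nothing is therefore read from this count against the share. The 15 granulocyte and monocyte markers summed to 341 to 509 and 284 to 345 CPM, with 3 of 15 higher by mean in MaeaCsf1r-Cre HSCs. B cell markers (17.0 to 28.0 and 13.6 to 24.7 CPM over 7 genes, Pax5 and Igll1 at 0) and T cell markers (1.58 to 3.16 and 0.272 to 1.58 CPM over 4 genes, Cd3g and Cd8a at 0) were low in both groups. The 5 erythroid markers summed to 189 to 514 and 228 to 492 CPM, and the 4 megakaryocyte markers to 210 to 961 and 282 to 588 CPM. The part of any of these cells in the receptor values was not tested.

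Promoter sequence was at hand for 4 of the 5 members, in RefSeq windows of GRCm38.p6 that cover 250 bases before the RefSeq start of the gene, and not for Csf2rb. RefSeq and GENCODE starts differ, so that most of the Il3ra window and the last bases of the Csf2ra window, with its core nearest the start, lie inside the GENCODE genes given above. Those of Csf2rb2, whose groups were apart, and of Csf2ra, whose groups overlapped, are shown for comparison. Searched on both strands were the STAT motif TTCNNNGAA, the core GAGGAA of the PU.1 motif and, for GATA factors, the letters AGATAA. No match overlapped another in these windows. Matches are in capitals, with Csf2rb2 at chr15:78305722-78305971 and Csf2ra at chr19:61228419-61228668, both on the minus strand and written 5′ to 3′ towards the gene.
Csf2rb2: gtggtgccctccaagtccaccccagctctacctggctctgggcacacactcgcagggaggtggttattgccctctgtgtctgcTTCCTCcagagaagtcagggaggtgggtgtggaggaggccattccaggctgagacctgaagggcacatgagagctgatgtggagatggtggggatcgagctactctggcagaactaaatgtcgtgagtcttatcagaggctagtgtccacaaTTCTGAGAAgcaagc
Csf2ra: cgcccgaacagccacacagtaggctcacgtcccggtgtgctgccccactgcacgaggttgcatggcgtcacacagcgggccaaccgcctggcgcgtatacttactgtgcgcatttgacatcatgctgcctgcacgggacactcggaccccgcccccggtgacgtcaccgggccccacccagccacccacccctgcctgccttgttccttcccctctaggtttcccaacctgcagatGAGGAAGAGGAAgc

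The Csf2rb2 window held 1 STAT motif, 15 bases before the start, and 1 PU.1 core on the other strand, 167 bases before it. The Csf2ra window held 2 PU.1 cores, 14 and 8 bases before the start, and no STAT motif. Il3ra held none of the 3 motifs and Il5ra held 1 GATA motif, 74 bases before the start. Over 32851 windows of the same 250 bases, 7.02% held the STAT motif, 23.3% the PU.1 core and 9.99% the GATA motif. Such a match describes the letters alone.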

How the data were processed

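The authors sequenced HSC RNA from 3 control and 3 MaeaCsf1r-Cre libraries (SMART-Seq v4 and Nextera XT, 150-base single-end reads), aligned reads to mm10 with STAR 2.5.3a after Trim Galore, per the submitters' processing notes, and used Partek Flow to count reads on Ensembl transcripts and to normalise. They deposited CPM per gene symbol with 0.0001 added, which was subtracted. Listed genes took 75.2 to 80.2% of the scaled total. Of 46959 rows, 44119 matched GENCODE M21 by symbol, 27 symbols had become dates and 4 rows shared a symbol. Reads behind the scaling came from the steps between low values. Between 72.3 and 74.3% of low values were whole within 0.05 read, so no count test was run.

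Genes that reached 1 CPM in 3 or more libraries were fitted as log2(CPM + 1) with limma and a mean-variance trend, two-sided, with Benjamini-Hochberg adjustment over all genes tested and a threshold of 0.05. A fold change on this scale understates that of low genes. For the receptor chains the standard error is that of the group means, without moderation. P-values measure the spread between these libraries. Same-numbered libraries, paired by their labels' numbers, moved alike around their group means (Pearson's r across genes was 0.627, 0.523 and 0.397, against -0.459 to -0.054 for differently numbered libraries), so a replicate block was also fitted.

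Members and lists were chosen with earlier results of these data known. Named genes were Maea, the members and ligands, Jak2, Stat5a, Stat5b and 3 more signalling genes with the smallest p, 4 with the smallest p from each other list, the 5 most like Csf2rb, and defining markers. Some genes this rule names are not reported here. Simulated data with known changes were used to test the fit. RNA of other progenitors in the study was not analysed here. Software was R 4.3.3, limma 3.58.1, Python 3.11.15, numpy 2.4.6, pandas 2.3.3, Biopython 1.88 and matplotlib 3.10.9.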

Additional observations from a re-analysis of the deposited data

How the results depend on the processing

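Over every alternative the log2 difference kept its sign for Csf2rb (0.88 to 1.24), Csf2rb2 (1.03 to 1.30), their sum (0.95 to 1.26) and Il5ra (-0.39 to -0.06, the lowest with a pseudocount of 0.1), but not for Csf2ra (-0.33 to 0.16) or Il3ra (-0.11 to 0.30). Csf2rb was lowest without MaeaCsf1r-Cre replicate 2. By the longest transcript, Csf2rb was at 4.23 CPM per kb in control and 9.42 in MaeaCsf1r-Cre HSCs and Il3ra at 1.45 in control. Of the 5 genes most like Csf2rb, 0 remained among the closest 5 with deviations from group means, though their r stayed at 0.82 to 0.977. Over all genes, 1 was called higher with and without the replicate block, which changed no other call, while unadjusted p under 0.05 went from 517 to 1805 genes. A filter at a CPM of 10 gave 0 calls. Without a filter, 0 genes were called higher and 1 lower (Cd209f). Leaving out 1 library gave 0 to 1 calls, 0 to 1 higher and 0 to 1 lower (BC023719 without control replicate 1, Rps18-ps3 without MaeaCsf1r-Cre replicate 3), and 1654 to 3700 genes with groups not overlapping, since fewer libraries overlap less. The cause of the other shifts was not tested. With 3 libraries a group and few reads, differences of Il5ra and of the ligands were not detectable at this depth.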

Other observations

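The genes around the beta chains on chromosome 15 were looked at after the receptor values were seen. Within 300 kb of the pair, 24 further genes are annotated, 19 were in the table and 8 were tested, of which 0 had an adjusted p under 0.05 in limma. Ift27, a subunit of the intraflagellar transport complex, was the 1 tested gene higher in every MaeaCsf1r-Cre library, against 2.49% over all genes tested. It was at 24.7, 24.4 and 29.2 CPM in control and 33.5, 29.4 and 30.0 CPM in MaeaCsf1r-Cre HSCs (log2 difference 0.24, standard error 0.14). Ncf4, a subunit of the phagocyte NADPH oxidase and the nearest expressed gene on the side of Csf2rb2, was at 8.71 ± 2.32 and 5.57 ± 1.14 CPM (SD, n = 3 each), with overlapping groups and a log2 difference of -0.55 (standard error 0.25). Rac2, a GTPase of blood cells, was at 259 ± 65.6 and 207 ± 44.6 CPM (SD, n = 3 each; log2 difference -0.31, standard error 0.23). No tested neighbour had a difference of the size seen for Csf2rb and Csf2rb2.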
